A study of Mus musculus with 10 samples.

Results

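The Hox genes of the 4 mouse clusters, Hoxa, Hoxb, Hoxc and Hoxd, are described here in periotic tissue of embryos at embryonic day 12.5. Members are the genes whose array probe set carries a single gene symbol made of a cluster name and a number. They numbered 37 of the 19938 genes measured this way, and each had 1 such probe set. Periotic tissue holds the developing inner ear, which grows from the epithelium of the otic vesicle, and the mesenchyme that encloses it. Left and right tissue of each embryo was pooled and put on 1 Affymetrix Mouse Gene ST 1.0 array. The 5 mutant embryos were T-Cre conditional Tbx1 knockouts, and the 5 controls were T-Cre conditional Tbx1 heterozygotes, so both groups carried the Cre and the controls also had a reduced Tbx1 dose. T-Cre is a recombinase expressed in early mesoderm, so the knockout is directed at the mesenchyme and not at the otic epithelium. The comparison addresses the genes that depend on mesodermal Tbx1, a T-box factor needed for the inner ear and the pharyngeal arches.

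Hox genes encode homeodomain transcription factors that give cells their position along the head to tail axis. Within a cluster, genes lie in the order of their paralogue numbers, and low numbers are expressed from the hindbrain and pharyngeal arches backwards while high numbers are limited to the trunk, limbs and tail. The ear forms beside the hindbrain, so neighbouring neural tube, neural crest and mesoderm carry low-number Hox genes, and tissue of the neck carries the middle numbers. In the results below the members are ordered by paralogue number in the classes 1 to 4, 5 to 8 and 9 to 13.

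Values are log2 signals, in which 1 unit is a doubling. The signal of Tbx1 itself was 8.71 ± 0.31 in controls and 7.83 ± 0.36 in mutants (SD, n = 5 each), a log2 difference of -0.88, with 4 of the 5 mutants below every control (exact two-sided permutation p = 0.0159, paired by number 0.0625) and a limma adjusted p of 0.451. All 6 markers of periotic mesenchyme and all 7 of otic epithelium exceeded in every array the background value that is defined with the Hox levels. In both groups, embryos 1 to 3 and embryos 4 and 5 differed in immediate early genes. Fos read 8.82 to 9.08 in the former and 5.49 to 5.91 in the latter, and results are therefore also given within these number sets. The labels do not say what a replicate number shares, and embryos differ in sex, with 1 male among the mutants and 2 among the controls. The number of arrays limits the precision, and in bulk tissue fewer cells of a type and less RNA per cell cannot be told apart.

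In control tissue the low-number genes were detected and most of the high-number genes did not exceed background. The background value was 5.48, the 95th percentile of the control means of 1015 olfactory receptor genes. A gene counted as above background when all 5 controls exceeded it, which held for 68.8% of all genes. All 11 members with numbers 1 to 4 were above background, as were 8 of 10 with numbers 5 to 8 and 4 of 16 with numbers 9 to 13. The 4 were Hoxb9, Hoxd9, Hoxd10 and Hoxd11, and 0 of the 6 members numbered 12 and 13 passed. By cluster, 6 of 10 Hoxa, 8 of 9 Hoxb, 2 of 9 Hoxc and 7 of 9 Hoxd genes were above background. The Hoxc cluster starts at number 4, and its members above background were Hoxc4 and Hoxc5. In the mutants the counts were 11 of 11, 9 of 10 and 5 of 16, against 68.5% of all genes. With the 99th percentile, 6.28, as the background value 13 of the 37 remained. Of numbers 1 to 4, Hoxa3, Hoxc4 and Hoxd4 then failed, with lowest controls of 5.91, 6.19 and 6.10. With the highest Y-linked signal of female embryos, 4.36, all 37 passed, so the calls near the background value depend on it. Signals of different probe sets differ in probe response and are not compared as amounts of RNA.

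**Figure D1:**
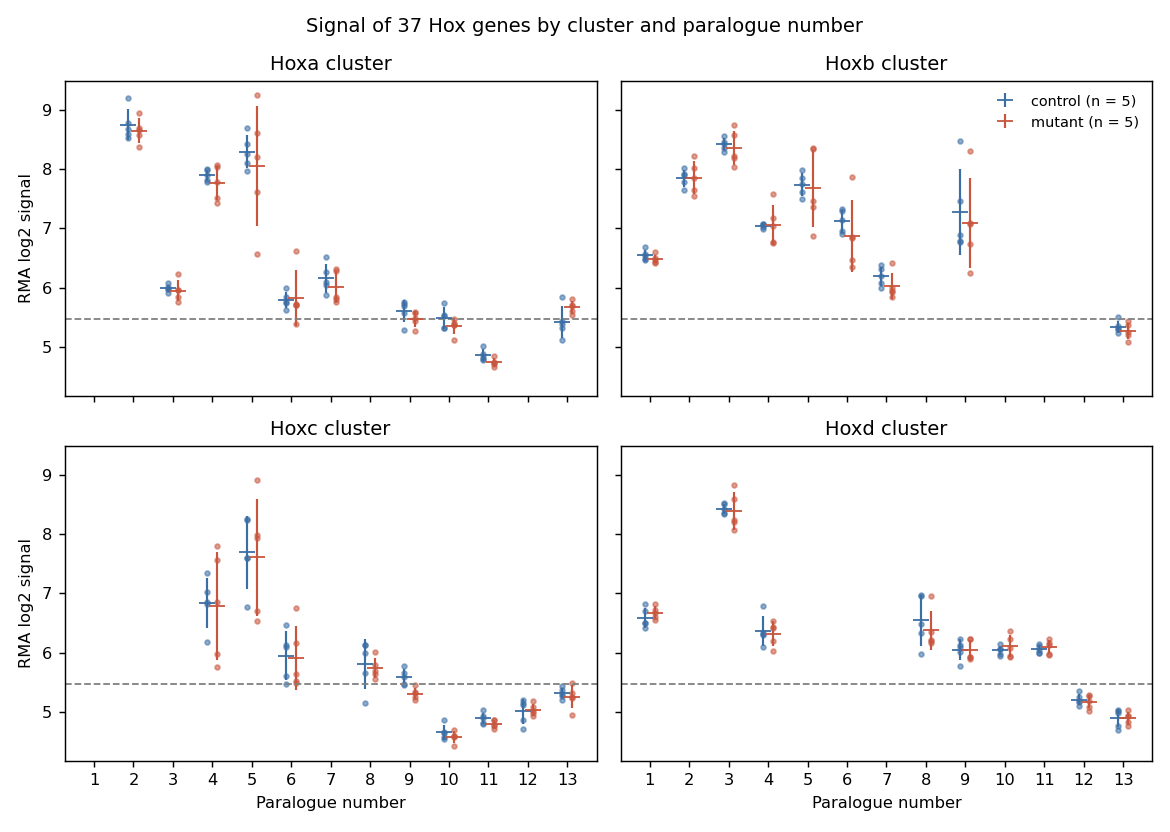
RMA log2 signal (y axis) against paralogue number (x axis) for the 37 Hox genes, 1 panel per cluster. Small points are single arrays, horizontal marks and bars are group means ± SD (n = 5 each, controls blue, mutants red), and the dashed line is the background value of 5.48. All genes numbered 1 to 4 lie above the line in the controls and the control means of those numbered 12 and 13 lie under it, and the groups overlap in every gene.

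No Hox gene differed between mutants and controls past the threshold. In limma's test with Benjamini-Hochberg adjustment over all probe sets, 0 of the 37 passed an adjusted p of 0.05, where 0.0100% of all genes did, and the smallest adjusted p among the members was 0.569. At an unadjusted p under 0.05 there was 1 member, Hoxc9, against 7.82% of all genes in either direction and 3.11% in its direction, lower in the mutants. For 0 of the 37 members did the groups of 5 not overlap, which happened for 1.83% of all genes. Most group mean differences were below 0. Of the members, 29 had a lower and 8 a higher mean in the mutants, against a lower mean for 50.9% of all genes. Without mutant 4, 30 members had a lower mean, against 48.2% of all genes. The median log2 difference was -0.0626 over the members, or 95.8% of the control signal, and -0.00210 over all genes. Differences ranged from -0.28 for Hoxc9 to 0.25 for Hoxa13. By cluster the medians were -0.13 for Hoxa, -0.0631 for Hoxb, -0.0675 for Hoxc and -0.00924 for Hoxd. By class they were -0.0444, -0.12 and -0.0664 from low to high numbers. Without mutant 4 the median over the 37 was -0.12, and without mutant 3 it was -0.038. Leaving out 1 array at a time, the Hoxd median ranged from -0.0485 (without control 5) to 0.0309 (without control 2), the Hoxc median from -0.12 (without mutant 4) to -0.0110 (without control 2), and that of numbers 5 to 8 from -0.25 (without mutant 4) to -0.0119 (without mutant 1).

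**Figure D2:**
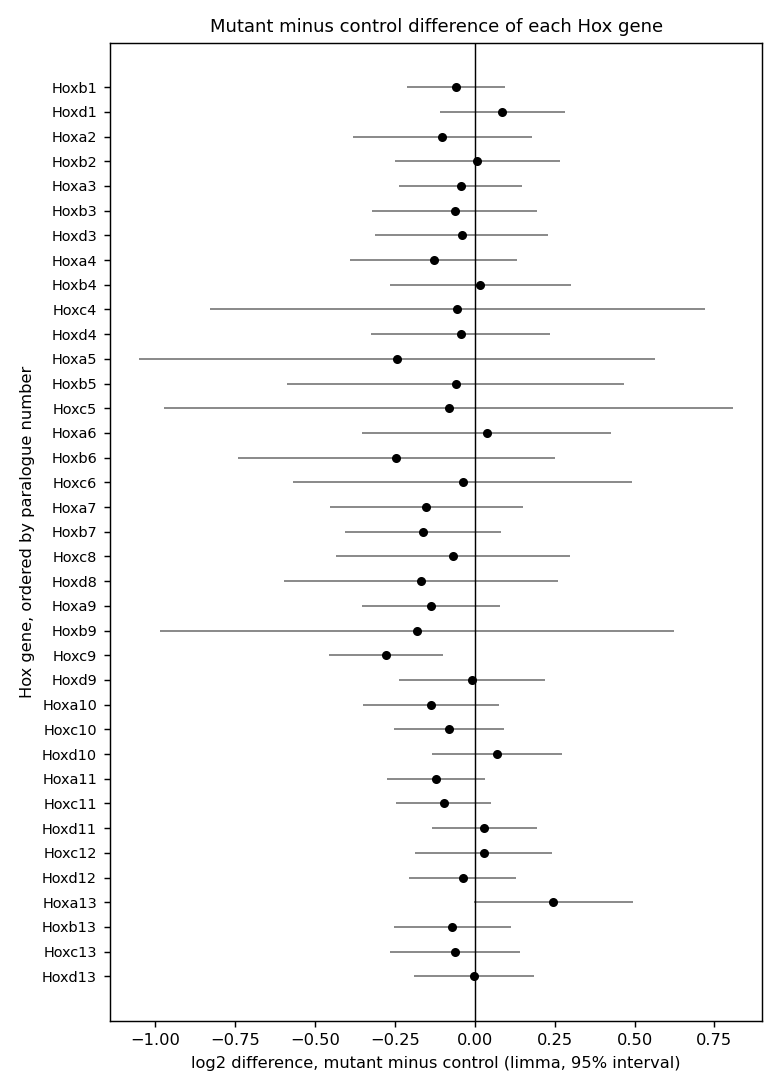
Log2 difference, mutant minus control, on the x axis for each Hox gene on the y axis, ordered by paralogue number from 1 at the top to 13 at the bottom. Points are limma estimates and bars 95% intervals (n = 5 each); every interval except that of Hoxc9 includes 0, and the widest belong to Hoxc4, Hoxa5, Hoxc5 and Hoxb9.

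Of the members numbered 1 to 4, Hoxb1 varied least between embryos. Hoxb1 read 6.46, 6.68, 6.58, 6.48 and 6.53 in controls 1 to 5 and 6.42, 6.47, 6.60, 6.51 and 6.44 in mutants 1 to 5. Hoxb1 sets the identity of the hindbrain segment from which the facial nerve arises, and all its values lay within 0.26 log2 units. Hoxd1 read 6.42, 6.51, 6.70, 6.81 and 6.50 in controls 1 to 5 and 6.60, 6.67, 6.83, 6.55 and 6.72 in mutants 1 to 5. The log2 differences were -0.0599 (SE 0.0708) for Hoxb1 and 0.0856 (SE 0.0906) for Hoxd1, and the groups overlapped for both.

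Hoxa2 and Hoxb2 were above background in all arrays and did not differ past the threshold. Hoxa2 read 9.19, 8.67, 8.78, 8.51 and 8.59 in controls 1 to 5 and 8.65, 8.37, 8.57, 8.95 and 8.69 in mutants 1 to 5. Hoxa2 is the selector gene of the second pharyngeal arch, from which the stapes and styloid process derive. Control 1 was the highest array and mutant 2 the lowest, and the log2 difference was -0.10 (SE 0.13). Hoxb2 read 7.92, 7.64, 7.89, 7.78 and 8.01 in controls 1 to 5 and 7.65, 7.55, 7.85, 8.22 and 8.01 in mutants 1 to 5. Mutant 4 was here the highest array, mutant 2 the lowest, and the difference was 0.00831 (SE 0.12).

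The genes numbered 3 act in the third pharyngeal arch, the posterior hindbrain and the upper neck. Hoxa3 read 6.01, 6.08, 5.98, 5.98 and 5.91 in controls 1 to 5 and 5.75, 5.96, 5.84, 6.23 and 5.96 in mutants 1 to 5. Hoxb3 read 8.36, 8.42, 8.46, 8.55 and 8.28 in controls 1 to 5 and 8.23, 8.19, 8.03, 8.74 and 8.56 in mutants 1 to 5. Hoxd3 read 8.50, 8.42, 8.52, 8.35 and 8.34 in controls 1 to 5 and 8.24, 8.20, 8.06, 8.83 and 8.59 in mutants 1 to 5. In each of the 3 genes mutant 4 was the highest of all arrays and mutant 1 or mutant 3 the lowest, while the controls lay close together. The control SDs of Hoxa3, Hoxb3 and Hoxd3 were 0.0606, 0.100 and 0.0854, and the mutant SDs 0.178, 0.291 and 0.316. Their log2 differences were -0.0444 (SE 0.0885), -0.0631 (SE 0.12) and -0.0410 (SE 0.13).

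The genes numbered 4 pattern the lower hindbrain and the cervical vertebrae. Hoxa4 read 7.78, 8.001, 7.89, 7.98 and 7.81 in controls 1 to 5 and 7.42, 7.78, 7.52, 8.03 and 8.07 in mutants 1 to 5. Hoxb4 read 7.07, 7.08, 7.03, 7.06 and 6.98 in controls 1 to 5 and 6.76, 7.17, 6.77, 7.57 and 7.04 in mutants 1 to 5. Hoxb4 had the tightest controls of the whole family, with an SD of 0.0397 against 0.334 in the mutants. Hoxc4 read 6.86, 7.02, 6.19, 7.34 and 6.82 in controls 1 to 5 and 5.76, 6.86, 5.98, 7.79 and 7.57 in mutants 1 to 5. Mutants 1 and 3 and control 3 were the low arrays of Hoxc4 and mutants 4 and 5 the high ones, a range of 2.04 log2 units. Hoxd4 read 6.79, 6.10, 6.31, 6.33 and 6.30 in controls 1 to 5 and 6.44, 6.41, 6.03, 6.54 and 6.19 in mutants 1 to 5. The log2 differences of Hoxa4, Hoxb4, Hoxc4 and Hoxd4 were -0.13 (SE 0.12), 0.0173 (SE 0.13), -0.0546 (SE 0.36) and -0.0439 (SE 0.13), with overlap of the groups in each.

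The genes numbered 5 were above background in every array and were among the most widely spread. They act at the level of the neck and upper thorax, and Hoxa5 is also required in the mesenchyme of the airways. Their arrays, and those of Hoxb6 and Hoxb9, are given in full because of values seen in these data. Hoxa5 read 8.10, 8.69, 7.97, 8.42 and 8.26 in controls 1 to 5 and 6.57, 8.21, 7.61, 9.24 and 8.60 in mutants 1 to 5. Mutant 1 lay 2.67 log2 units below mutant 4, with the controls between them. Hoxb5 read 7.99, 7.62, 7.84, 7.75 and 7.49 in controls 1 to 5 and 7.36, 7.46, 6.88, 8.33 and 8.36 in mutants 1 to 5. Hoxc5 read 7.59, 8.26, 6.77, 8.24 and 7.59 in controls 1 to 5 and 6.54, 7.93, 6.70, 8.91 and 7.98 in mutants 1 to 5. Mutant 4 had the highest Hoxa5 and Hoxc5 signals of the 10 arrays and mutant 5 the highest Hoxb5 signal. Group means were 8.29 ± 0.28 and 8.05 ± 1.01 for Hoxa5, 7.74 ± 0.19 and 7.68 ± 0.65 for Hoxb5, and 7.69 ± 0.61 and 7.61 ± 0.99 for Hoxc5 (SD, n = 5, controls first). The log2 differences were -0.24 (SE 0.37), -0.0598 (SE 0.24) and -0.0823 (SE 0.41) in the same order, all smaller than the spread between embryos.

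The genes numbered 6 to 8 mark the cervical to thoracic trunk, and mutant 4 was the highest array for 4 of the 7, Hoxa6, Hoxb6, Hoxb7 and Hoxc6. Hoxa6 read 5.62, 5.76, 5.74, 5.84 and 6.002 in controls 1 to 5 and 5.71, 5.70, 5.38, 6.62 and 5.72 in mutants 1 to 5. Hoxb6 read 7.29, 7.13, 6.90, 6.95 and 7.32 in controls 1 to 5 and 6.46, 6.86, 6.35, 7.87 and 6.83 in mutants 1 to 5. The distance of mutant 4 from the other mutants in Hoxa6 exceeded Dixon's 95% limit for an outlying value. Hoxb7 read 6.08, 5.997, 6.38, 6.20 and 6.31 in controls 1 to 5 and 5.94, 6.002, 5.95, 6.42 and 5.85 in mutants 1 to 5. Hoxd8 read 6.95, 6.49, 5.98, 6.98 and 6.33 in controls 1 to 5 and 6.20, 6.35, 6.22, 6.95 and 6.16 in mutants 1 to 5. In Hoxb7 and Hoxd8 mutant 4 was again past Dixon's limit within the mutants, but controls 3 and 5 in the former and controls 1 and 4 in the latter read about as high. The remaining members of the class were Hoxa7, Hoxc6 and Hoxc8, with log2 differences of -0.15, -0.0384 and -0.0675. A probe set listed with both Hoxb8 and Hoxb7, and so no member, read 6.04, 5.81, 5.87, 5.75 and 6.79 in controls 1 to 5 and 5.65, 5.70, 5.64, 8.30 and 5.56 in mutants 1 to 5. It set mutant 4 and, less so, control 5 apart from the other arrays.

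Spread between embryos of the same group rose and fell with paralogue number. The SD within groups, pooled over both genotypes, had a median of 0.22 log2 units in numbers 1 to 4, 0.41 in numbers 5 to 8 and 0.14 in numbers 9 to 13, against 0.13 over all genes. An SD above 0.29 put a gene in the top 5.00% of all genes. This held for 1 of 11 members in the first class, 8 of 10 in the second and 1 of 16 in the third. Without mutant 4 the counts were 1, 6 and 1. The 3 members numbered 5 had SDs of 0.744 (Hoxa5), 0.478 (Hoxb5) and 0.821 (Hoxc5). Hoxc4 had 0.712 and Hoxb9 0.740. Most genes of the third class read near background, where the signal has little room to fall. The mutant SD was larger than the control SD in 22 of the 37 members, against 55.5% of all genes. It was larger in 15 of the 21 members numbered 1 to 8 and in 7 of the 16 numbered 9 to 13.

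**Figure D3:**
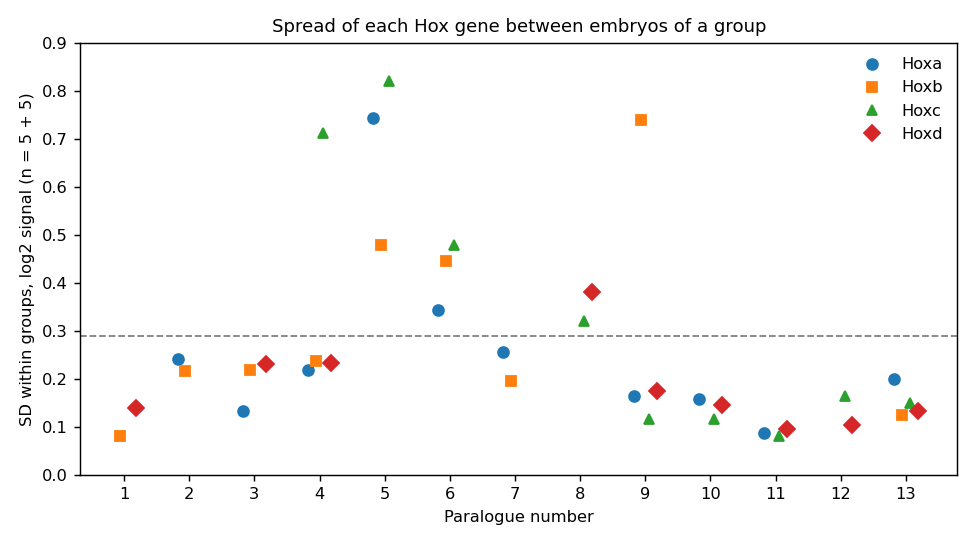
SD of the log2 signal within groups (y axis, pooled over 5 controls and 5 mutants) against paralogue number (x axis), with symbols for the 4 clusters. The dashed line at 0.29 bounds the top 5.00% of all genes; the members above it are Hoxc4, the genes numbered 5, 6 and 8, and Hoxb9.

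Promoter sequences are shown for the 2 members of largest spread with an entry in the RefSeq promoter table and for the member of smallest spread among those numbered 1 to 4. Of the 37 members, 21 had an entry, with 23 promoters. Each sequence runs 5′ to 3′ on the gene's strand from 250 bases before to 50 after the start, in GRCm38.p6. Hoxa5 lies at chr6:52204538-52204837 on the minus strand, Hoxc4 at chr15:103034145-103034444 on the plus strand and Hoxb1 at chr11:96365508-96365807 on the plus strand. Capitals mark any match, on either strand, to TGATNNAT (bound by Hox and Pbx proteins together), TGACAG (Meis), AGGTCA (retinoic acid receptors) or TTTATG (Cdx).
Hoxa5: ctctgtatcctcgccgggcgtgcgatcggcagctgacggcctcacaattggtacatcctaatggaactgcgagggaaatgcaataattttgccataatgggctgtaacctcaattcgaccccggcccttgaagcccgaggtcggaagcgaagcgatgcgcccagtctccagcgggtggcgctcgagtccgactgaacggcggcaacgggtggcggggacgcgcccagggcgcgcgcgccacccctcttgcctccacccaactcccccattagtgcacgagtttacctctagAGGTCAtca
Hoxc4: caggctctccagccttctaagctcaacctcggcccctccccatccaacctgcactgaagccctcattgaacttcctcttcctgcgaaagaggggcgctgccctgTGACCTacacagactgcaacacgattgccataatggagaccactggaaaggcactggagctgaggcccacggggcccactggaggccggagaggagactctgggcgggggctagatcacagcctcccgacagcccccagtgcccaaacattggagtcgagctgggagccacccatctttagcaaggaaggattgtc
Hoxb1: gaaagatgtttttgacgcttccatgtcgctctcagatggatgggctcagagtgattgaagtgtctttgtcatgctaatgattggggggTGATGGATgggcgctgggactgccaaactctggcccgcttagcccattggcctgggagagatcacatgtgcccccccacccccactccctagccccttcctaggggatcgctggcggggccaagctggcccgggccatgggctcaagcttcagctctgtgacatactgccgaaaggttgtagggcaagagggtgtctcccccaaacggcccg
Hoxa5 and Hoxc4 each held 1 match to AGGTCA, in Hoxc4 on the opposite strand. Hoxb1 held 1 match to TGATNNAT, and Hoxb1 is known to maintain its own transcription together with Pbx proteins. Whether matches go with the spread between embryos was not tested. AGGTCA occurred in 7 of the 23 Hox promoters and in 16.3% of all 32807 promoters of this length. TGATNNAT occurred in 3 and 8.86%, TTTATG in 4 and 11.9%, and TGACAG in 2 and 19.2%, in the same order. These matches describe the letters of a short window and show neither binding nor its absence.

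Among the genes numbered 9 to 13, Hoxb9 varied widely and Hoxc9 had the smallest p of the family. Hoxb9 read 6.78, 6.89, 6.77, 7.47 and 8.47 in controls 1 to 5 and 6.74, 7.10, 7.07, 8.30 and 6.26 in mutants 1 to 5. Control 5 and mutant 4 were the high arrays, with control 4 next at 7.47, and the difference was -0.18 (SE 0.37). Hoxc9 read 5.77, 5.45, 5.60, 5.66 and 5.47 in controls 1 to 5 and 5.45, 5.35, 5.20, 5.25 and 5.32 in mutants 1 to 5. Hoxc9, a thoracic gene that limits the limb-level motor columns of the spinal cord, read below every control in 4 of 5 mutants, while mutant 1 equalled control 2, the lowest control, to 2 decimals. Its group means were 5.59 ± 0.13 and 5.31 ± 0.10 (SD, n = 5 each, controls first), which straddle the background value of 5.48. Its log2 difference of -0.28 (SE 0.0820) had an exact two-sided permutation p of 0.0159 and a limma adjusted p of 0.569. Over the same-number pairs it was lower in 5 of 5, with an exact paired permutation p of 0.0625, the smallest that 5 pairs allow. Arrays 1 to 3 gave -0.27 and arrays 4 and 5 gave -0.28. Hoxa13, a gene of digits and hindgut, read 5.33, 5.44, 5.84, 5.38 and 5.13 in the controls and 5.71, 5.69, 5.60, 5.54 and 5.81 in the mutants. Its log2 difference was the highest of the family at 0.25 (SE 0.12), with a limma adjusted p of 0.617, and control 3 lay above every mutant. The other 13 members of this class, Hoxa9, Hoxa10, Hoxa11, Hoxb13, Hoxc10 to Hoxc13 and Hoxd9 to Hoxd13, had log2 differences between -0.14 and 0.0698.

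The same few arrays held the highest and lowest values of many members numbered 1 to 8. Mutant 4 was the highest of the 10 arrays for 12 of the 21 members numbered 1 to 8 and for 1 of the 16 numbered 9 to 13, against 7.87% of all genes and 9.65% of those above background in controls. It lay above all 5 controls for 14 of the 21 and 1 of the 16, against 16.0% of all genes. Mutant 1 or mutant 3 was the lowest array for 14 of the 21 and 3 of the 16, against 15.6% of all genes. Both of them lay below all controls for 12 of the 21 and 0 of the 16, against 4.24%. Of the members numbered 1 to 8 that were not highest in mutant 4, Hoxa7, Hoxc8 and Hoxd8 were highest in control 4. Hoxa2 and Hoxd4 were highest in control 1, Hoxa4 and Hoxb5 in mutant 5, Hoxb1 in control 2 and Hoxd1 in mutant 3. The mean deviation from the control mean over the 10 members numbered 5 to 8 was -0.55, -0.06, -0.49, 0.59 and -0.08 in mutants 1 to 5 and -0.10, 0.10, -0.25, 0.18 and 0.07 in controls 1 to 5. Over the 16 members numbered 9 to 13 it stayed between -0.13 and 0.07 in all arrays. Members are not replicates of each other, since all were read on the same 10 arrays.

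**Figure D4:**
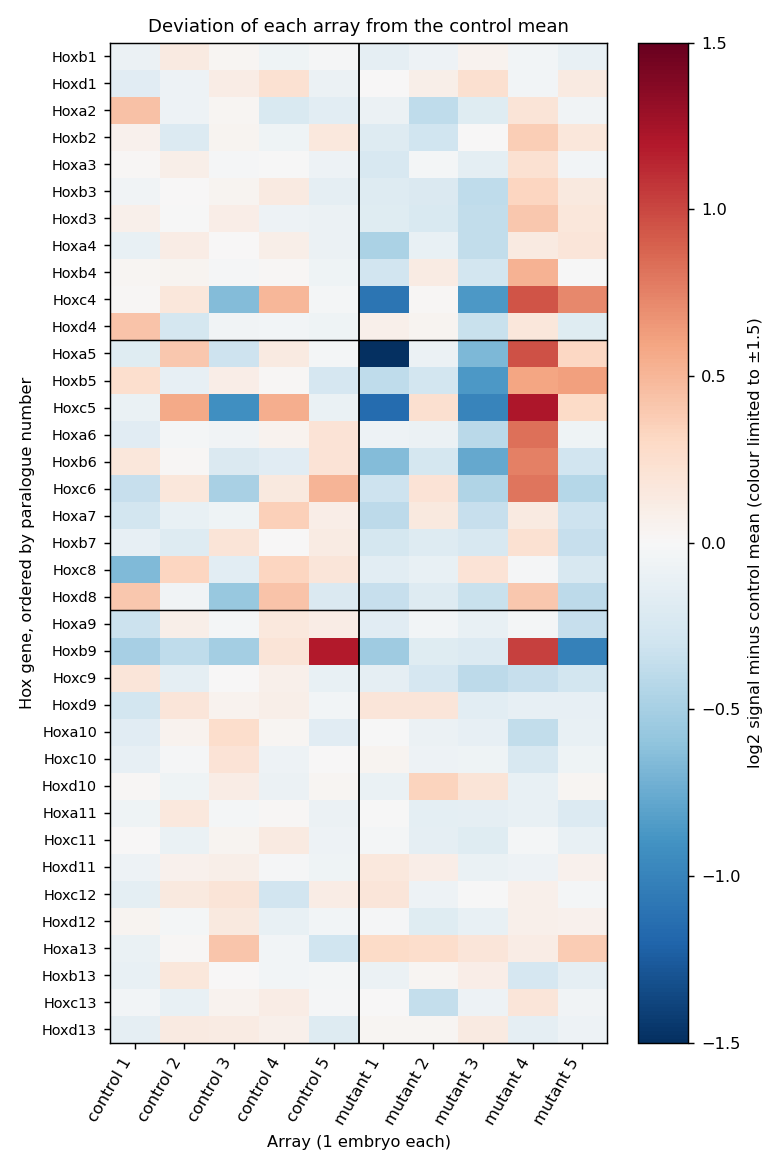
Log2 signal minus the control mean for each Hox gene (rows, paralogue number rising downwards, lines after numbers 4 and 8) in each array (columns, controls left of the line, mutants right). Mutant 4 is red and mutants 1 and 3 are blue across most rows numbered 1 to 8, and the arrays show little contrast in the rows numbered 9 to 13 apart from Hoxb9.

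Markers of other tissues in the dissected piece varied between arrays too. Tbx5, a forelimb bud gene, read 6.76, 7.03, 5.30, 7.02 and 6.59 in controls 1 to 5 and 5.89, 7.84, 6.35, 7.54 and 6.37 in mutants 1 to 5, low in control 3 and mutant 1 and high in mutants 2 and 4. Of the limb bud pair Tbx5 and Tbx4, 1 gene, Tbx4, was above background in the controls. The mean deviation of the pair was -0.39, 0.95, -0.08, 0.56 and -0.13 in mutants 1 to 5. It ranged from -0.81 to 0.34 in the controls. The hindbrain and neural tube list, with 6 of 10 measured genes above background in the controls, stood at 1.33 in mutant 5, at 0.58 in control 4 and between -0.30 and 0.07 in the other arrays. In mutant 5 En2, not above background in the controls, and Gpm6a read 8.81 and 10.58, against control means of 5.27 and 6.95. Sox1, Pax7 and Olig2 were highest in a control, and the other measured genes of the list in mutant 5. Pax6, not above background, was its 1 gene higher in mutants at an unadjusted p under 0.05, against 4.70% of all genes. After adjustment in limma 0 passed. The neuron list, with 10 of 11 above background, ranged from -0.59 to 0.47 in the controls and from -0.04 to 0.92 in the mutants, and was at -0.04 in mutant 4. Its 11 genes all had a higher mean in the mutants (median log2 difference 0.44), 5 of them at an unadjusted p under 0.05, against 4.70% of all genes, and 0 after adjustment in limma. The muscle list, with 4 of 5 genes above background, was at -0.12, -0.17, -0.40, 0.18 and -0.49 in mutants 1 to 5 and 0.07, -0.04, -0.25, 0.30 and -0.08 in controls 1 to 5. Among the mutants it was highest in mutant 4 and lowest in mutant 5, and among the controls highest in control 4 and lowest in control 3. Of its genes 2 were lower in mutants at an unadjusted p under 0.05, against 3.11% of all genes, and 0 after adjustment. The endothelium list, with 5 of 5 above background, ranged from -0.17 to 0.31 in the mutants and from -0.08 to 0.10 in the controls. Of its genes 2 were higher in mutants at an unadjusted p under 0.05, against 4.70% of all genes. After adjustment in limma 0 of them passed. The mean deviation of the somite and paraxial mesoderm list, with 7 of 7 above background, stayed between -0.08 and 0.08 in all arrays. Within that list Pax3 was higher in the mutants (log2 difference 0.70, SE 0.24) and Pax1 lower (-0.32, SE 0.13). Each had an unadjusted p under 0.05, against 4.70% and 3.11% of all genes in these directions. After adjustment in limma 0 of the list passed. The part of these tissues in the Hox values was not tested.

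Mutant minus control differences of several members numbered 1 to 8 had opposite signs in arrays 1 to 3 and in arrays 4 and 5. In Hoxb5 mutants 1 to 3 all read below controls 1 to 3, while mutants 4 and 5 read above controls 4 and 5. The log2 difference was -0.58 (95% interval -0.92 to -0.24) in the former set and 0.72 (95% interval 0.40 to 1.05) in the latter. For Hoxd3 the values were -0.31 (95% interval -0.51 to -0.12) and 0.37 (95% interval 0.0659 to 0.67). Hoxb3 gave -0.26 and 0.24, Hoxa4 -0.32 and 0.16, and Hoxa2 -0.35 and 0.27. In these 5 members all mutants were below all controls in the first set and above them in the second, which held for 0.321% of all genes; the opposite pattern held for 0.597% of all genes and no member. The differences of Hoxa5 were -0.79 and 0.58, and those of Hoxc4 -0.49 and 0.60. Over the 11 members numbered 1 to 4, 10 were lower in mutants of the first set (median -0.17) and 9 higher in mutants of the second (median 0.22). Mutants 1 to 3 all lay below controls 1 to 3 for 7 of the 37 members, against 4.32% of all genes, and mutants 4 and 5 above controls 4 and 5 for 10, against 15.8%. The medians over all genes were 0.00715 and -0.0110.

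**Figure D5:**
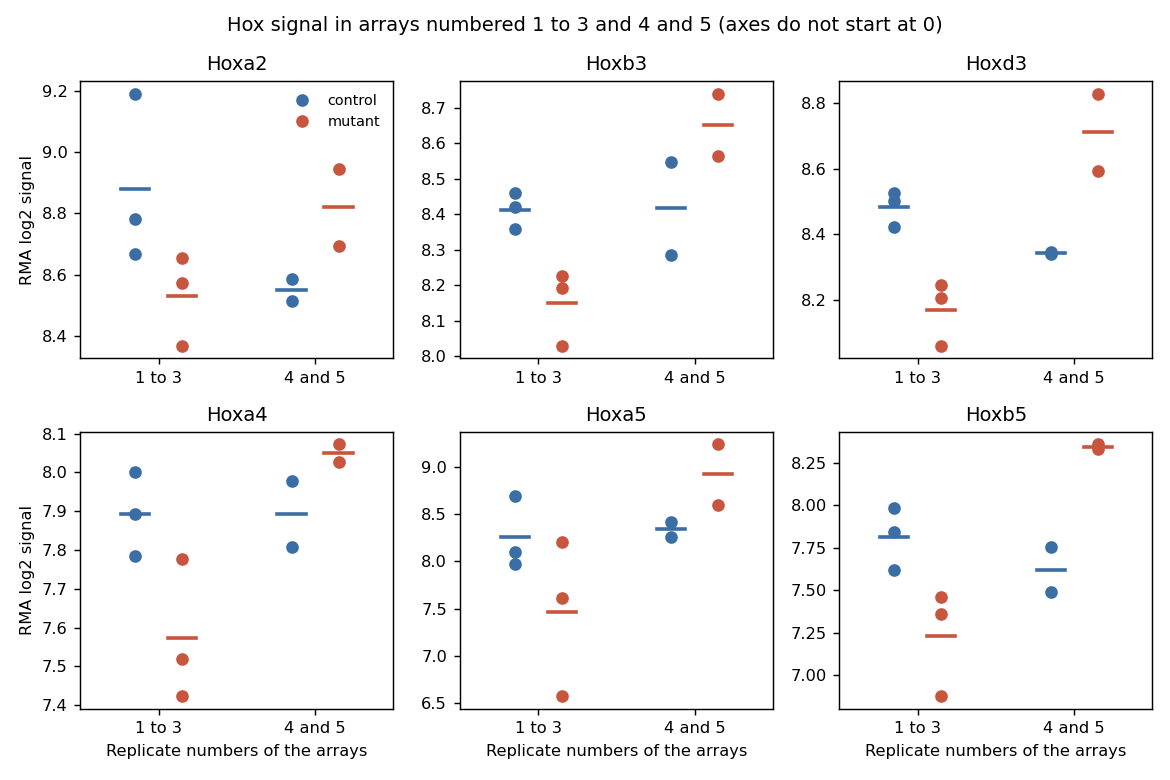
RMA log2 signal (y axes, not starting at 0) of 6 Hox genes in controls (blue) and mutants (red), separated by the replicate numbers 1 to 3 and 4 and 5 (x axis). Points are arrays and bars their means; mutants 1 to 3 have the lower mean and mutants 4 and 5 the higher one in every panel, without overlap except for Hoxa5 in the arrays numbered 1 to 3.

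No member passed the test of this reversal. In limma's interaction of genotype with number set, 0 of the 37 had an adjusted p under 0.05, as for 0.00% of all genes, and the smallest was 1.00. Hoxb5 had an interaction of 1.31 log2 units with an unadjusted p of 0.000180, and Hoxd3 0.68 with 0.000503. At an unadjusted p under 0.05 there were 505 of all genes in either direction (2.53%), of which 200 had a positive interaction. There were 7 members, all with a negative difference in arrays 1 to 3 and a positive one in arrays 4 and 5. They were Hoxa2, Hoxa4, Hoxa5, Hoxb3, Hoxb5, Hoxc4 and Hoxd3. The second set holds 2 arrays per genotype. Its mutants are mutant 4, above all controls in 14 of the 21 members numbered 1 to 8, and mutant 5. Mutant 5 had the highest mean deviation of the hindbrain and neural tube list. Leaving out both mutants was chosen after their values were seen. Mutant 4 read high in these members, so lower mutant means are partly built into that setting. It gave 9 members with an unadjusted p under 0.05, all lower in the mutants, against 7.43% of all genes in either direction. After adjustment 0 passed. Without mutant 4 alone there were 4, of which 3 were lower, against 7.79% of all genes in either direction. After adjustment there were again 0 (all genes 0.0100% in both settings). Within arrays 1 to 3 there were 8, all lower, against 6.16% of all genes in either direction. Within arrays 4 and 5 there were 6, of which 5 were higher, against 4.05% in either direction. After adjustment both sets gave 0 members, against 0.00502% and 0.00% of all genes.

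Some members also read higher in embryos 4 and 5 than in embryos 1 to 3. In limma's fit with genotype and number set, 8 members were higher at an unadjusted p under 0.05, against 5.14% of all genes, and 0 passed after adjustment, against 0.191%. The log2 differences were 0.94 for Hoxc4 (adjusted p 0.198), 0.88 for Hoxc5, 0.77 for Hoxa5 and 0.73 for Hoxb9. For Hoxc4 the controls moved from 6.69 in embryos 1 to 3 to 7.08 in embryos 4 and 5, and the mutants from 6.20 to 7.68. The control means of Hoxa4 were 7.89 and 7.89 and those of Hoxb3 8.41 and 8.42, close to each other in both genes. For Hoxb9 mutant 5 was the lowest of all arrays. The differences of Hoxa4, Hoxa6, Hoxb2 and Hoxb3 were 0.24, 0.39, 0.25 and 0.25.

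Genes that act with or upstream of Hox factors were measured from lists of their own, and 0 of their measured members passed the adjusted threshold in either direction or an unadjusted p under 0.05, against 0.0100% and 7.82% of all genes in limma. The TALE homeodomain proteins Pbx, Meis and Pknox bind DNA with Hox factors, and 8 of 9 were measured, all above background. Their median log2 difference was 0.09, with Meis2 at 0.18 (SE 0.0839) and Meis3 at 0.18 (SE 0.11). Upstream regulators, which include the Cdx factors, retinoic acid receptors and the enzymes that make and break down retinoic acid, had 13 of 15 measured and a median of -0.08. Of these Rarg, a retinoic acid receptor, had -0.21 (SE 0.11) and Cyp26c1, a retinoic acid hydroxylase, -0.15 (SE 0.0931). Polycomb proteins keep silent Hox genes repressed, and 13 of 14 were measured with a median of -0.01, Bmi1 at 0.13 and Ring1 at -0.13. Trithorax-group genes, which maintain active ones, had 5 of 6 measured and a median of 0.06, with Kat6a at 0.0798 and Men1 at 0.0644.

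Other transcripts inside and beside the clusters did not differ past the threshold. Of 9 measured noncoding RNAs and Evx genes of the clusters, 2 were above background, Evx2 and Mir615, and the median log2 difference was -0.03. The smallest p values were those of Mir196b, a microRNA gene of the Hoxa cluster, at -0.13 (SE 0.12), and Hottip, a noncoding RNA beside Hoxa13, at -0.0835 (SE 0.0815), both under background. Mir615, a microRNA gene inside Hoxc5, read 7.43, 8.12, 8.44, 7.59 and 7.998 in controls 1 to 5 and 8.08, 7.88, 7.64, 8.06 and 7.95 in mutants 1 to 5, so that mutant 1, lowest in Hoxc5, read slightly above mutant 4, highest in Hoxc5. Evx2, a homeobox gene next to Hoxd13, read 6.63, 6.54, 6.97, 6.86 and 6.58 in the controls and 6.49, 6.50, 6.53, 6.58 and 7.12 in the mutants, highest in mutant 5. Of the 2 annotated genes on each side of each cluster, 5 were measured, with log2 differences from -0.0835 for Hottip to -0.0191 for Ttll6. Mtx2, on the far side of Hoxd1, read 9.32, 8.86, 8.89, 8.99 and 8.81 in the controls and 8.81, 8.90, 9.16, 8.95 and 8.94 in the mutants, and Hottip, beside Hoxa13, was under the background value in all arrays.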

How the data were processed

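RNA of periotic tissue from 10 mouse embryos, 5 T-Cre conditional Tbx1 knockouts and 5 heterozygous controls, was labelled from 300 ng of total RNA and put on 1 array per embryo, per the labels' protocols. The deposited values are RMA signals on the log2 scale, as their range shows. The submitters' processing notes name Expression Console 1.1 of Affymetrix as the authors' software. RMA corrects background, equalises the distributions of arrays and summarises probe sets; the version of the probe files was not found in the labels. Replicates are separate embryos, per the labels.

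The table held 35557 probe sets, and 21789 had 1 symbol in the platform annotation. The probe set of highest mean stood for each of 19938 genes. The genotypes were compared in R 4.3.3 with limma 3.58.1 (lmFit, eBayes with trend, two-sided), adjusted by Benjamini-Hochberg over the 21789 probe sets at 0.05. The fit was tested on simulated data. Single genes named with a permutation p used all regroupings of the 10 arrays, which cannot give a p below 0.00794. Arrays have no read depth. RefSeq tables of GRCm38.p6 gave names, neighbours and promoters, and all 37 members matched by symbol.

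Given per array are Hox members numbered 1 to 4 above background, those with an unadjusted p under 0.05 and those with an outlying array. Hoxa13, the genes numbered 5, Hoxb6, Hoxb9 and the neighbour Mtx2 are also given per array, outside these rules. The others are given by ranges and counts. From each list of regulators and of genes in the clusters the 2 members of smallest p are named; Mir615, Evx2 and Tbx5 were named besides, after their values were seen. The members and lists were chosen with earlier results of these data known. The arrays numbered 1 to 3 and 4 and 5 were separated because of immediate early genes in these data. Mutant and control arrays of the same number deviated together (correlations 0.122 to 0.247 over all probe sets; other numbers -0.392 to 0.382), which by the rule used here counts as pairing, although the best match of a mutant was its own number in only 2 of 5 cases. The fits and p-values printed are unpaired unless called blocked or paired. Alternatives were the replicate block, no trend, robust eBayes, median centring, quantile normalization, a low-value filter, the number sets as covariate and apart, sex, array weights and leaving out each array.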

Additional observations from a re-analysis of the deposited data

Results flagged for a closer look

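Dixon's 95% limit for an outlying value in 5 arrays was exceeded in 10 of 126 groups of values, where chance gives about 6. In mutant 4 these were Hoxa6 (log2 signal 6.62), Hoxb7 (6.42), Hoxd8 (6.955), the mean deviation of the Hoxb cluster (0.3913) and the probe set listed with Hoxb8 and Hoxb7 (8.305), each the highest of the mutants. The same probe set was highest in control 5 among the controls (6.787). The mean deviation of the limb bud genes was lowest in control 3 (-0.814), and that of motor and visceral neuron genes was highest in control 1 (0.1314). In mutant 5 the mean deviation of the hindbrain and neural tube list was the highest of the mutants (1.328). That of the periotic mesenchyme list was the lowest (-0.3228). Members of the Hoxb cluster share arrays and neighbours, so these values are not independent of each other.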

How the results depend on the processing

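The count of 0 Hox genes past the adjusted threshold was the same in limma under every alternative run, with 0 to 9 members at an unadjusted p under 0.05. With the replicate number as a block it was 0, with 1 member at an unadjusted p under 0.05, and the block changed no call. The low-value filter tested 27 of the 37. Each gene has 1 probe set, so averaging probe sets changed nothing. Signs of uncalled differences turned as follows (log2 differences). Within the arrays numbered 4 and 5 they were Hoxa2 0.27, Hoxa3 0.14, Hoxa4 0.16, Hoxa5 0.58, Hoxb3 0.24, Hoxb5 0.72, Hoxb6 0.21, Hoxc4 0.60, Hoxc5 0.52, Hoxc13 0.0115, Hoxd1 -0.0187, Hoxd3 0.37, Hoxd4 0.0530, Hoxd10 -0.00618 and Hoxd12 0.14. Within those numbered 1 to 3 they were Hoxa6 -0.11, Hoxb2 -0.13, Hoxb4 -0.16, Hoxb9 0.16, Hoxc6 0.0345, Hoxc8 0.14, Hoxc12 -0.0281, Hoxd9 0.0822 and Hoxd13 0.0248. Without both mutant 4 and mutant 5, chosen after seeing the data, they were Hoxa6 -0.19, Hoxb2 -0.16, Hoxb4 -0.14, Hoxb13 0.0149, Hoxd9 0.0676 and Hoxd13 0.0651. Array weights gave Hoxa6 -0.00122, Hoxb2 -0.0416, Hoxd4 0.0151, Hoxd9 0.00164 and Hoxd13 0.00857. A further quantile normalization gave Hoxb2 -0.00522, Hoxd9 0.00482 and Hoxd13 0.0303, centring on medians Hoxd9 0.00711 and Hoxd13 0.0134, and sex as covariate Hoxb4 -0.0158 and Hoxd4 0.00343. Leaving out single arrays gave the ranges Hoxa2 -0.18 to 0.00975, Hoxa3 -0.11 to 0.00434, Hoxa5 -0.54 to 0.13, Hoxa6 -0.16 to 0.15, Hoxb2 -0.0823 to 0.0851, Hoxb3 -0.16 to 0.0171, Hoxb4 -0.11 to 0.0923, Hoxb5 -0.23 to 0.14, Hoxb9 -0.48 to 0.12, Hoxc4 -0.30 to 0.20, Hoxc5 -0.41 to 0.19, Hoxc6 -0.25 to 0.0898, Hoxc8 -0.23 to 0.0127, Hoxc12 -0.0448 to 0.0747, Hoxc13 -0.12 to 0.0119, Hoxd3 -0.15 to 0.0404, Hoxd4 -0.11 to 0.0625, Hoxd9 -0.0786 to 0.0369, Hoxd11 -0.00318 to 0.0620 and Hoxd13 -0.0527 to 0.0309.

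Medians moved by more than the control spread in these cases. Within the arrays numbered 4 and 5 they were 0.0115 over all members, 0.15 for Hoxa, 0.21 for Hoxb, and 0.22 and 0.0592 for numbers 1 to 4 and 5 to 8. Within those numbered 1 to 3 they were -0.16 for Hoxb and -0.17 for numbers 1 to 4. Without both mutant 4 and mutant 5 they were -0.14 over all members, -0.23 for Hoxb, 0.0546 for Hoxd and -0.16 for numbers 1 to 4. The low-value filter gave 0.0105 for numbers 9 to 13. Leaving out single arrays gave -0.12 to -0.0377 over all members and -0.16 to -0.0425 for Hoxb. For numbers 1 to 4 it gave -0.11 to 0.0171, above 0 only without mutant 3. The cause of these moves was not tested. The single-array ranges of Hoxc (-0.12 to -0.0110), Hoxd (-0.0485 to 0.0309) and numbers 5 to 8 (-0.25 to -0.0119) did not pass that spread.

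Calls above background depend on the value chosen. With the Y-linked value 37 members passed, 10 of Hoxa, 9 of Hoxc and 16 of those numbered 9 to 13. With the 99th percentile 13 passed, 3 of Hoxa, 1 of Hoxc, 2 of Hoxd, 4 of those numbered 5 to 8 and 1 of those numbered 9 to 13. Of numbers 1 to 4, Hoxa3, Hoxc4 and Hoxd4 did not pass it. With at least 1 control above the value, 5 of Hoxc and 9 of those numbered 9 to 13 passed. Signals near 5.48 cannot separate a low level from none.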
